A study of Homo sapiens with 3 samples.

Results

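Long noncoding RNAs that carry small RNAs, together with a few well-studied long noncoding RNAs, were compared between an osimertinib-sensitive lung cancer line and lines made resistant from it. The members were the genes whose array name marks them as a snoRNA host (SNHG followed by a number, or GAS5) or a microRNA host (a name beginning with MIR and ending in HG), plus H19, MEG3, MALAT1, NEAT1, HOTAIR and PVT1. Names chose 61 genes with 150 probes, out of 43316 genes and 58200 probes on the array. Of the 61 genes, 21 were snoRNA hosts, 34 were microRNA hosts and 6 were named singly. H1975 (NCI-H1975) is an established non-small cell lung cancer line with a mutated EGFR and was the osimertinib-sensitive parent. OR1 and OR2 were derived from it by exposure to rising osimertinib, an EGFR inhibitor, which reached 2 μmol/L and took 4 months. The study describes them as independently selected clones, so each stands for 1 selection and not for resistant cells in general. All 3 lines grew in RPMI medium with fetal bovine serum, and the labels do not say whether osimertinib was present at harvest.

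Each line was measured once, on 1 one-colour array, so precision is limited by the number of arrays, and p-values cannot be given. Values below are scaled intensities, that is, a probe's intensity divided by the 75th percentile of its array, and ratios are taken between 2 arrays for the same probe. The brightest probe stands for a gene unless its probes are given one by one. A gene was called where its ratio was at least 2 or at most 0.5. A technical SD, derived from the scanner software's error for the spots, is given on the log2 scale and covers 1 RNA sample, not the spread between cultures. The 75th percentile was 157, 138 and 162 in H1975, OR1 and OR2, and 45.6% to 45.9% of probes were well above background. The labelled cell type was checked on 9 markers of lung adenocarcinoma cells. The keratins KRT8 and KRT18 had ratios of 0.806 to 1.12, whereas the adhesion genes CDH1 and EPCAM and the keratins KRT7 and KRT19 were at or below 0.5 in both resistant lines. NKX2-1 and NAPSA were at 0.252 and 0.770 in OR1 and at 1.36 and 1.57 in OR2, and no array had SFTPB well above background. Well above background on at least 1 array were 8 of these 9 markers, 3 of 6 of fibroblasts, 2 of 3 of leukocytes and 3 of 3 of endothelium. Among the defining ones CD3E, COL3A1, DCN and PDGFRA were not well above background on any array, while 3 fibroblast markers were. COL1A2 was at 0.162 in OR1 and at most 0.0615 in OR2, COL1A1 at 1.45 and 0.183, and LUM was well above background only in OR1, at least 5.43-fold higher than H1975. The part of these marker differences in the members' values was not tested, and fewer cells that express a gene and less RNA per cell cannot be told apart in such bulk samples.

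A host gene is transcribed as a long RNA from which shorter RNAs are cut. snoRNA hosts release small nucleolar RNAs from their introns, and these guide the chemical modification of ribosomal and other RNAs, while the spliced remainder of the host is often degraded quickly. microRNA hosts contain hairpins that are trimmed to microRNAs, which bind messenger RNAs mainly through a short seed near the 5′ end. MALAT1 and NEAT1 stay in the nucleus, NEAT1 as the scaffold of the paraspeckle, whereas H19 and MEG3 are imprinted, HOTAIR lies among the HOXC genes and PVT1 lies beside MYC.

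H19 and MIR503HG were higher and MIR31HG was lower than in H1975 cells in both resistant lines. MALAT1 and NEAT1 were higher by about the same size in both, near the ratio of 2, and SNHG6 was lower near the ratio of 0.5. Most snoRNA hosts, the brightest among them included, lay between these ratios. MIR205HG, whose brightest probe was near 1 in OR1, was far lower at its other 2 probes. The arrays report the host transcripts and not the mature microRNAs, whose sequences are given here for H19, MIR503HG, MIR31HG, MIR205HG and MIR7-3HG to show what these hosts carry. Capitals mark the seed, bases 2 to 8, and sequences are those of RefSeq (GRCh38.p14). MIR675 lies within H19, MIR503 within MIR503HG, MIR31 within MIR31HG, MIR205 within MIR205HG and MIR7-3 within MIR7-3HG. MIR424, in no member, lies next to MIR503HG and is shown because the seeds of miR-503-5p and miR-424-5p begin with the same AGCAGC.
hsa-miR-675-5p: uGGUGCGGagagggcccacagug
hsa-miR-675-3p: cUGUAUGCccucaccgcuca
hsa-miR-503-5p: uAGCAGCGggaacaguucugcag
hsa-miR-424-5p: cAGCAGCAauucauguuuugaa
hsa-miR-31-5p: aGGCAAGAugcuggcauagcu
hsa-miR-205-5p: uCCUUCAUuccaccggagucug
hsa-miR-7-5p: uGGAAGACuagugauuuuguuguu

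Of the 61 members, 46 stood well above background on 1 array or more and 42 on all 3. The 46 do not stand for all members, because 15 gave no ratio. In OR1, 5 of the 46 (10.9%) had a ratio of at least 2, against 8.95% of the 22418 genes well above background on at least 1 array, and 2 (4.35%) had a ratio of at most 0.5, against 9.34%. In OR2, 4 (8.7%) were at least 2, against 7.47%, and 1 (2.17%) was at most 0.5, against 8.41%. In both lines, 2 members (4.35%), H19 and MIR503HG, were at least 2, against 5.09%, and MIR31HG alone (2.17%) was at most 0.5, against 6.32%. These shares lay near those of all genes, or below them for lower ratios, so the counts set the members apart from other genes in neither direction. OR1 and OR2 were both set against the same H1975 array, so the H1975 measurement enters both ratios.

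**Figure D1:**
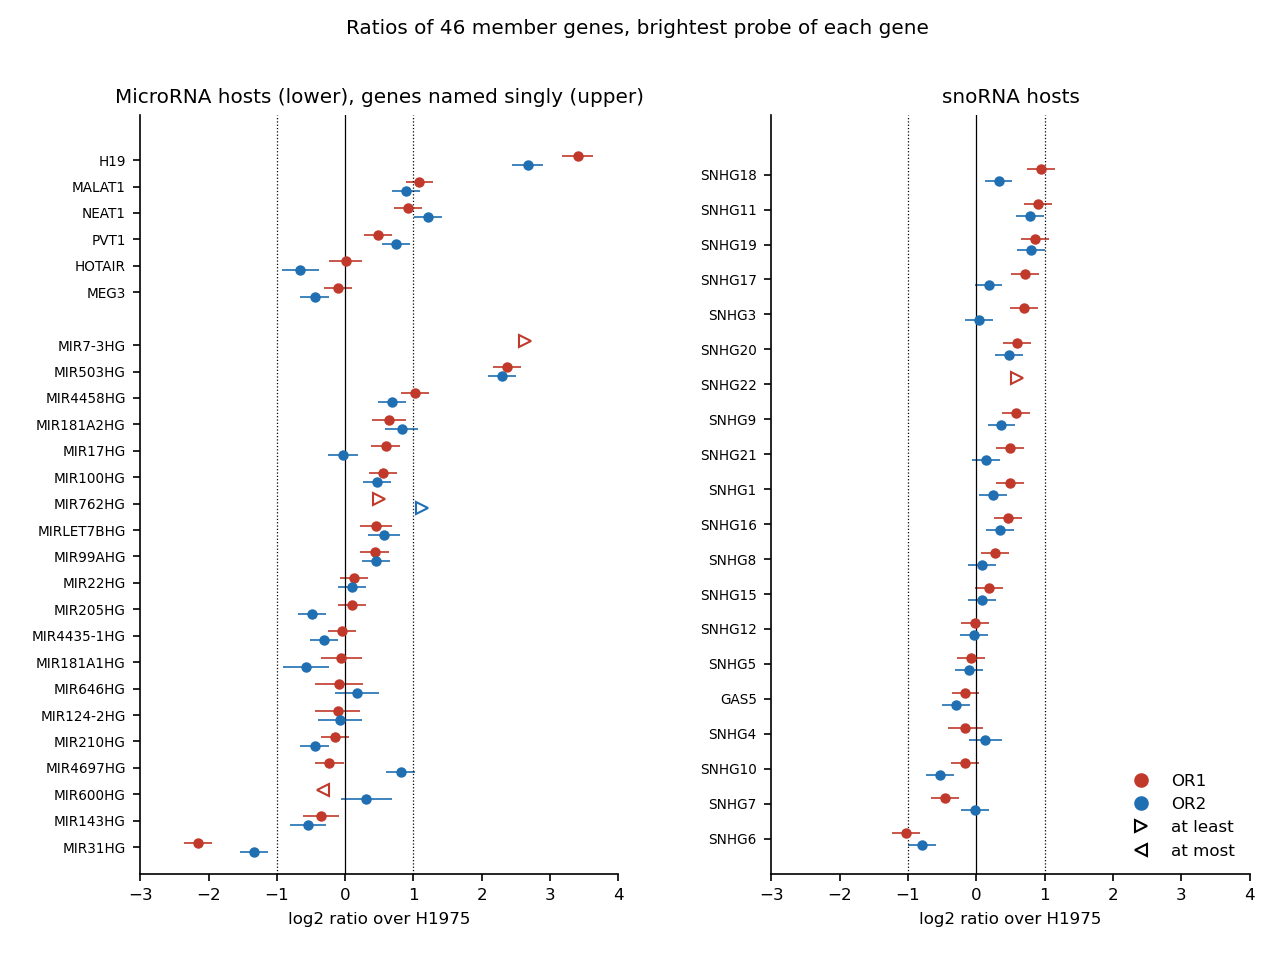
Log2 ratio of OR1 (red) and OR2 (blue) over H1975 for the 46 members well above background on at least 1 array, by the brightest probe. Bars are the technical SD, open triangles are bounds, and dotted lines mark ratios of 0.5 and 2. H19, MIR503HG and MIR31HG lie past these lines in both lines, and scaling on spike-in probes would move every OR1 point left by 0.60, turning OR1 points between 0 and that value below 0.

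H19 is a maternally expressed imprinted RNA of chromosome 11. Its brighter probe (NR_002196, hg19 chr11:2016674-2016733) gave 0.270, 2.86 and 1.72 in H1975, OR1 and OR2, as scaled intensities. The H1975 value was the lowest, and the gene was 10.6-fold higher in OR1 and 6.37-fold higher in OR2, each with a technical SD of 0.22. The other probe (chr11:2016961-2017020) gave 0.174, 2.04 and 1.30, which are ratios of 11.8 and 7.48. Both probes placed the lines in the order H1975, OR2, OR1, but OR2 over OR1 moved from 0.601 to 0.957 with scaling on spike-in probes. With another background correction (normexp) the ratios were 5.05 and 3.20, and MIR503HG, at 4.25, then lay above H19 in OR2.

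Partners of H19 did not share one direction. CDKN1C, an imprinted cell cycle inhibitor of the same chromosome arm, was at 2.29 in H1975, 13.9 in OR1 and 14.1 in OR2, which are ratios of 6.04 and 6.13. IGF2, the imprinted growth factor gene beside H19, was at most 0.323 of the H1975 value in OR1 and 0.557 in OR2. Among the 10 nearest genes well above background on all 3 arrays, up to 233 kb away, log2 ratios had medians of 0.11 (OR1) and -0.29 (OR2), against 3.41 and 2.67 for H19. MRPL23, a mitochondrial ribosomal protein gene 42.7 kb away, had ratios of 1.28 and 1.09. TH, the tyrosine hydroxylase gene, was the one neighbour past a ratio of 2 or 0.5, at 0.311 and 0.371.

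MIR503HG, on the X chromosome, was the most strongly raised microRNA host measured on all 3 arrays. Its brightest probe (NR_024607, hg19 chrX:133677412-133677471) gave 1.67, 8.62 and 8.15 in H1975, OR1 and OR2. Both resistant lines lay well above H1975, with ratios of 5.18 and 4.89 and a technical SD of 0.20. The probe nearest the start of the gene (chrX:133678744-133678803) gave 1.1, 2.8 and 2.2, ratios of 2.56 and 2.01. The probe between them (chrX:133677703-133677762) gave 0.319, 0.646 and 0.593, ratios of 2.03 and 1.86. All 3 probes lay within 1392 bases and were higher in both lines, but by different sizes. The probes are shown because the size of the increase depends on which of them is read.
MIR503HG probe from 133678744: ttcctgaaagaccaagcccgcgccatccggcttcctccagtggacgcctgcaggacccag
MIR503HG probe from 133677703: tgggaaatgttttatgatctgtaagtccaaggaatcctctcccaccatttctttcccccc
MIR503HG probe from 133677412: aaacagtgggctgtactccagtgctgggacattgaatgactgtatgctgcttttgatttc

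The genes around MIR503HG leaned the same way by less. The 10 nearest measured genes, up to 477 kb away, had log2 ratios with medians of 0.51 (OR1) and 0.68 (OR2). PLAC1, a placenta-expressed gene 22.7 kb away, had ratios of 4.28 and 2.43, and LINC00629, a long noncoding RNA gene 16.4 kb away, had 1.45 and 2.08. HPRT1, which encodes a purine salvage enzyme, lay 42.9 kb away and had 0.812 and 0.877.

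MIR31HG, on chromosome 9, was lower at every probe. Its brightest probe (NR_027054, hg19 chr9:21454716-21454775) gave 3.77 in H1975, 0.848 in OR1 and 1.5 in OR2, which are ratios of 0.225 and 0.398. The probe near the start of the gene (chr9:21559488-21559547) gave 3.61, 1.04 and 1.21, ratios of 0.288 and 0.334. The dimmest probe (chr9:21455702-21455761) gave 0.263 in H1975, was not well above background in OR1, where the ratio was at most 0.313, and gave 0.110 in OR2, a ratio of 0.419. H1975 was the highest of the 3 lines at each probe, and probes 104832 bases apart from end to end gave similar values.

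Among the 10 nearest measured genes of MIR31HG, up to 909 kb away, log2 ratios had medians of -0.55 (OR1) and -0.57 (OR2), against -2.15 and -1.33 for MIR31HG. KLHL9, an adaptor gene of a ubiquitin ligase and the nearest at 124 kb, had ratios of 0.983 and 1.1. PTPLAD2 had 0.0662 and 0.135, the lowest of the 10, and CDKN2A, which encodes cell cycle inhibitors, had 0.435 and 0.521. The nearby genes were thus lower on the median, but not all of them were.

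**Figure D2:**
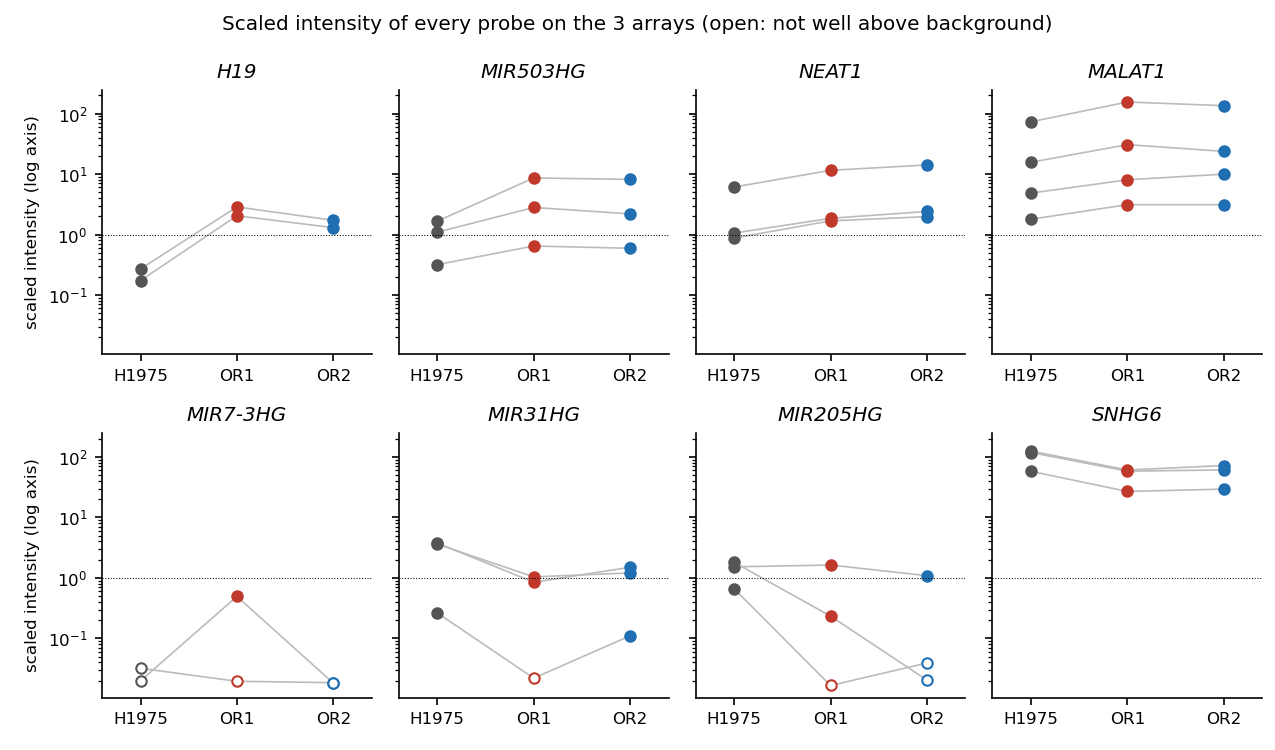
Scaled intensity (log axis, multiples of the array's 75th percentile) of every probe of 8 members on the H1975, OR1 and OR2 arrays. Lines join the values of 1 probe, open points were not well above background, and the dotted line is the 75th percentile. Probes of H19, MIR503HG, NEAT1 and MALAT1 lie above their H1975 value in both lines, those of MIR31HG and SNHG6 below it, and those of MIR205HG part ways.

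MIR205HG, on chromosome 1, split by probe. The probe nearest the gene's start (NM_001104548, hg19 chr1:209602655-209602714) gave 1.53 in H1975, 1.63 in OR1 and 1.09 in OR2, which are ratios of 1.07 and 0.713. The probe farthest downstream (chr1:209605792-209605851) gave 1.81 and 0.233 in H1975 and OR1, a ratio of 0.129, and was not well above background in OR2, where the ratio was at most 0.0431. The probe beside it (chr1:209605692-209605751) gave 0.659 in H1975 and was not well above background in OR1 or OR2, with ratios of at most 0.125 and 0.118. The downstream probes thus lay far below H1975 in both lines and the upstream probe did not. All 3 probes span 3197 bases, and the gene counted as called in neither line, because the upstream probe had the highest mean. The probe sequences are printed because the reading of this gene rests on them.
MIR205HG probe from 209602655: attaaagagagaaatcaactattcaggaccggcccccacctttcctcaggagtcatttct
MIR205HG probe from 209605692: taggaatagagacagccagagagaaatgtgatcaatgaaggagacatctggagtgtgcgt
MIR205HG probe from 209605792: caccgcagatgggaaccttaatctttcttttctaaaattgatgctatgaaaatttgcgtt

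The 10 nearest measured genes of MIR205HG had log2 ratios with medians of -0.60 (OR1) and -0.42 (OR2). LAMB3, a laminin chain gene of epithelial basement membrane 186 kb away, had ratios of 0.651 and 0.558. G0S2, an inhibitor of lipid breakdown, lay 247 kb away and had 0.207 and 0.406, whereas HHAT, an acyltransferase gene, had 2.50 and 2.94. The epithelial markers CDH1 and EPCAM were also lower in both lines, at 0.0205 and 0.0370 in OR1 and at 0.0800 and 0.0725 in OR2, and their relation to MIR205HG was not tested.

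**Figure D3:**
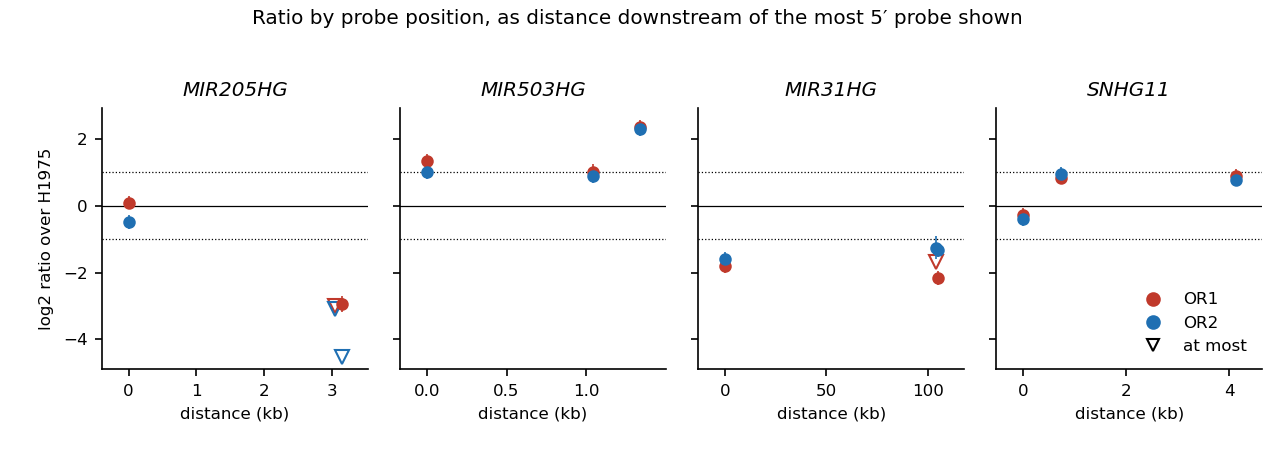
Log2 ratio over H1975 of each probe well above background on at least 1 array, by its distance in kb downstream of the most 5′ probe shown, in 4 members. Points carry the technical SD, open triangles are upper bounds, and dotted lines mark ratios of 0.5 and 2. MIR205HG is near 0 upstream and below -2 about 3 kb downstream, SNHG11 is below 0 at its first probe and above 0 at the others, and MIR503HG and MIR31HG keep 1 direction.

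MALAT1 and NEAT1, neighbours on chromosome 11, were higher in both lines at every probe. The brightest MALAT1 probe (NR_002819, hg19 chr11:65270980-65271039) gave 73.0 in H1975, 155 in OR1 and 135 in OR2, ratios of 2.13 and 1.85, and its 4 probes gave 1.66 to 2.13 in OR1 and 1.51 to 2.06 in OR2. The brightest NEAT1 probe (NR_028272, chr11:65193885-65193944) gave 6.10, 11.5 and 14.1, ratios of 1.89 and 2.31. Its 3 probes gave 1.75 to 1.92 in OR1 and 2.26 to 2.31 in OR2. MALAT1 therefore passed the ratio of 2 only in OR1 and NEAT1 only in OR2, and each missed it in the other line by less than the technical SD of 0.20. With the authors' normalized values MALAT1 passed it in OR2 too, at 2.23, and scaling on spike-in probes lowered the OR1 ratios to 1.41 for MALAT1 and 1.25 for NEAT1.

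Proteins of the paraspeckle, the nuclear body built on NEAT1, lay near 1. None of the 13 measured passed a ratio in either line, and their log2 ratios had medians of -0.13 (OR1) and -0.21 (OR2). The core proteins NONO and SFPQ had ratios of 1.05 and 0.751 in OR1 and of 1.04 and 0.735 in OR2.

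PVT1, MEG3 and HOTAIR passed no ratio by their brightest probe. PVT1 gave 30.2, 42.2 and 50.5 in H1975, OR1 and OR2, ratios of 1.40 and 1.67, and its 7 probes gave 1.18 to 1.90 in OR1 and 1.02 to 1.92 in OR2, although scaling on spike-in probes put the OR1 ratio at 0.925. MYC, the growth regulator gene beside PVT1, gave 36.2, 87.4 and 68.6, ratios of 2.41 and 1.89. MEG3 gave 0.869, 0.807 and 0.639, ratios of 0.928 and 0.735, and 4 of its 7 probes were not well above background on any array. MEG9 and DIO3, of the same imprinted region of chromosome 14, were well above background only in H1975 and were at most 0.340 and 0.442 of it in OR1 and at most 0.321 and 0.417 in OR2.

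HOTAIR was dim, at 0.249 in H1975, 0.25 in OR1 and 0.158 in OR2, ratios of 1.01 and 0.633. A probe from hg19 chr12:54356620-54356679 went opposite ways, with 0.209 in H1975, 0.375 in OR1 and a value not well above background in OR2. HOXC13, the member of the HOXC cluster that passed the ratio in both lines, gave 0.288, 0.730 and 0.618, ratios of 2.53 and 2.15. The other HOXC genes measured on all 3 arrays, HOXC4, HOXC6, HOXC8 and HOXC9, had ratios of 0.762 to 1.12. EZH2, the catalytic subunit of polycomb repressive complex 2, with which HOTAIR is known to associate, had ratios of 0.426 and 0.563.

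The remaining microRNA hosts were mostly near 1 or dim. MIR143HG was dim, at 0.270 in H1975, and split by probe. Its brightest probe had ratios of 0.783 (OR1) and 0.685 (OR2), and another had 2.11 and 1.33. MIR4458HG gave 2.32, 4.74 and 3.72, ratios of 2.04 and 1.60, its other probe gave 2.33 and 1.64, and scaling on spike-in probes put the OR1 ratio at 1.35. MIR7-3HG was well above background only in OR1, at 0.494, at least 6.19-fold higher than H1975, and its other probe was not well above background in any line. MIR762HG did not rise well above background in H1975 but gave 0.113 in OR1 and 0.174 in OR2, at least 1.42-fold and 2.18-fold higher, the latter at least 1.18-fold with normexp. MIR600HG gave 0.103 in H1975 and 0.128 in OR2 and was not well above background in OR1, which gives a ratio of 1.24 in OR2 and a bound of at most 0.799 in OR1.

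MIR100HG and MIR99AHG carry microRNAs that share seeds across different chromosomes, which is why their sequences are set side by side. miR-100-5p and miR-99a-5p share the seed ACCCGUA, and let-7a-5p and let-7c-5p share GAGGUAG. MIR100HG gave 1.83, 2.71 and 2.54, ratios of 1.48 and 1.38, but its other 2 probes had 1.62 and 1.13 in OR1 and 0.930 and 0.888 in OR2. MIR99AHG gave 0.834, 1.12 and 1.14, ratios of 1.35 and 1.37. Neither passed the ratio by its brightest probe, although a dimmer MIR99AHG probe was well above background only in OR1, at least 3.23-fold higher than H1975. Both OR1 ratios of the brightest probes turned below 1 with scaling on spike-in probes, at 0.977 and 0.893.
hsa-miR-100-5p (MIR100HG): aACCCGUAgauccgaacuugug
hsa-miR-99a-5p (MIR99AHG): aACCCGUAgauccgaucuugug
hsa-let-7a-5p (MIR100HG): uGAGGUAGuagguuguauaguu
hsa-let-7c-5p (MIR99AHG): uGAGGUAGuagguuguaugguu

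MIR4697HG was the member that passed a ratio of 2 between the resistant lines, with 0.689 in H1975, 0.585 in OR1 and 1.21 in OR2, which is 2.06-fold more in OR2 than in OR1 and 1.59-fold with normexp. RefSeq now lists this name under IGSF9B, a protein-coding gene. The background of this comparison was 2.37% of genes at or above 2 and 2.76% at or below 0.5, against 1 of 46 members (2.17%) each way, the lower one being MIR7-3HG. MIR181A2HG gave 0.217, 0.339 and 0.384, ratios of 1.56 and 1.77. MIR17HG, host of a microRNA cluster of growing cells, gave 0.547, 0.825 and 0.536, ratios of 1.51 and 0.980, with the OR1 ratio at 0.997 after scaling on spike-in probes. MIR4435-1HG, among the members with the brightest probes, gave 103, 99.4 and 82.5, ratios of 0.969 and 0.804. Over the 17 microRNA hosts measured on all 3 arrays the median log2 ratio was 0.10 in both lines. In OR1 it was -0.01 with median scaling, -0.09 with none and -0.50 with scaling on spike-in probes. The OR1 medians of all genes were -0.07, -0.16 and -0.56 under these settings, against 0.03 as reported. Probe choice moved the OR1 median of the hosts up, to 0.33 with the median over probes (12 hosts) and 0.20 with every probe (28 probes).

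microRNA processing factors were near 1 as well. None of the 15 on the array, DROSHA, DICER1 and AGO2 among them, passed a ratio in both lines, and 13 were well above background on all 3 arrays with median log2 ratios of -0.11 and -0.25. LIN28B, which blocks the maturation of let-7, was well above background only in OR1, at least 2.13-fold higher than H1975. The members not well above background on any array were MIR1-1HG, MIR133A1HG, MIR137HG, MIR155HG, MIR202HG, MIR217HG, MIR3663HG, MIR381HG, MIR3976HG, MIR4500HG, MIR663AHG, MIR670HG, MIR7515HG, MIRLET7DHG and SNHG23.

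By its brightest probe 1 of the snoRNA hosts passed a ratio. Of 21, 19 were well above background on all 3 arrays, with ratios from 0.488 to 1.93 in OR1 and from 0.576 to 1.74 in OR2. Between 0.5 and 2 lay 94.7% of these hosts in OR1 and 100% in OR2, against 84.3% and 86.6% of all genes. Their log2 ratios had a median of 0.46 for OR1, against 0.03 over all 18591 genes measured on all arrays, and of 0.13 for OR2, against -0.05. With the median over probes the host medians were 0.32 (OR1) and 0.16 (OR2), against 0.05 and -0.04 for all genes. With every probe counted they were 0.23 and 0.06, against 0.04 and -0.04. With scaling on spike-in probes the OR1 medians were -0.14 for the hosts and -0.56 for all genes, so the hosts were above the median gene but not above H1975. In OR1, 11 of the 19 hosts were higher and 2 lower than H1975 by more than the technical SD. Over the 18591 genes these counts were 6820 and 6178. In OR2 the hosts gave 7 and 3, and the 18591 genes gave 6004 and 7160.

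SNHG6, the host past a ratio, gave 125 in H1975, 60.9 in OR1 and 71.9 in OR2, ratios of 0.488 and 0.576 with a technical SD of 0.20. Its 3 probes gave 0.465 to 0.491 in OR1 and 0.508 to 0.576 in OR2, so OR2 stopped just short of 0.5, and in OR1 the brightest probe stopped short too, at 0.513, with quantile normalization. SNORD87, the snoRNA gene within SNHG6, gave 6.68, 3.27 and 2.95, ratios of 0.490 and 0.443. The 10 nearest measured genes on chromosome 8, SNORD87 among them, reached 292 kb and had median log2 ratios of -1.18 and -0.81, about those of SNHG6 itself at -1.03 and -0.80. COPS5, a subunit of the COP9 signalosome, had ratios of 0.399 and 0.404, and ARFGEF1, a vesicle transport gene, had 0.278 and 0.381.

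**Figure D4:**
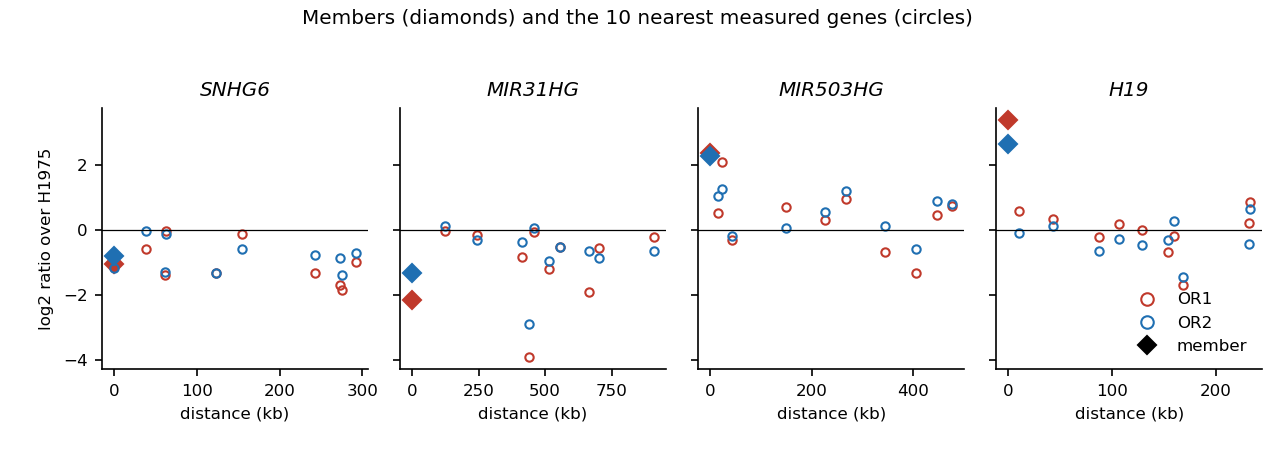
Log2 ratio over H1975 of 4 members (diamonds, at distance 0) and of the 10 nearest genes well above background on all 3 arrays (circles, distance in kb), for OR1 (red) and OR2 (blue). SNHG6 lies among its neighbours, with medians of -1.18 and -0.81, whereas MIR31HG, MIR503HG and H19 lie apart from most of theirs. Scaling on spike-in probes would lower every OR1 point by 0.60.

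The brightest members, SNHG5 and GAS5, were close to 1. SNHG5 gave 276, 262 and 257, ratios of 0.951 and 0.931, and its 6 probes gave 0.926 to 0.982 in OR1 and 0.884 to 0.971 in OR2. GAS5, named for its accumulation in growth-arrested cells, gave 185, 166 and 151, ratios of 0.896 and 0.816. Each of these values turned slightly above 1 in OR2 with quantile normalization, at 1.11 and 1.0. SNHG8 gave 83.1, 100 and 87.9, ratios of 1.21 and 1.06, and SNHG7 gave 79.5, 57.8 and 78.6, ratios of 0.727 and 0.988, with the OR1 values of SNHG8 and SNHG7 at 0.798 and 0.481 after scaling on spike-in probes. Brightness depends on the probe as well as on the transcript, so no order of abundance is read from it.

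The hosts nearest the ratio of 2 were SNHG18, SNHG11 and SNHG19. SNHG18 gave 2.17, 4.18 and 2.71, ratios of 1.93 and 1.25, and its other probe gave 2.37 and 1.58. SNHG19 gave 37.5, 68.0 and 65.3, ratios of 1.82 and 1.74. SNHG11 gave 8.80, 16.4 and 15.2 at its brightest probe on average, ratios of 1.87 and 1.73, but its probes disagreed. The probe nearest the start (hg19 chr20:37075377-37075436) gave 13.3, 11 and 10.1, ratios of 0.824 and 0.755, and the probe after it gave 1.80 and 1.95. The differing probes are printed so that they can be placed on transcripts of this gene.
SNHG11 probe from 37075377: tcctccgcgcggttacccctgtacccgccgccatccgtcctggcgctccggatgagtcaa
SNHG11 probe from 37076117: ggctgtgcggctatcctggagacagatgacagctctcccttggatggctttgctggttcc
SNHG11 probe from 37079504: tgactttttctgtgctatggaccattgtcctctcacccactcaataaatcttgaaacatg

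SNHG3 and SNHG17 were higher in OR1 than in OR2, with OR2 over OR1 at 0.637 and 0.693, but at 1.01 and 1.1 with scaling on spike-in probes. SNHG3 gave 52.5, 85.1 and 54.2, ratios of 1.62 and 1.03, and SNHG17 gave 27.8, 45.3 and 31.4, ratios of 1.63 and 1.13. SNHG22 was well above background only in OR1, at least 1.51-fold higher than H1975. The other hosts gave ratios between 0.890 and 1.52 in OR1 and between 0.694 and 1.39 in OR2.

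The array also held probes for snoRNAs themselves, which allowed hosts to be set beside what they carry. By RefSeq, 17 of the 21 snoRNA hosts hold at least 1 snoRNA gene. Of 72 snoRNA genes within hosts that had a probe, 33 in 13 hosts were well above background on all 3 arrays. Those that fell short all lay within SNHG23, itself not well above background, except SNORD75 of GAS5. The snoRNA probes cannot tell a mature snoRNA from a longer RNA that contains it. Of the 33, 28 lay on the same side of 1 as the host in OR1 and 25 in OR2. No link is read from these counts, because the share for unlinked genes was not computed. SNHG1 holds 8 of the 33 and GAS5 holds 6. The SNORA78 probe (hg19 chr16:2015451-2015510) also overlaps the probe of its host SNHG9 (chr16:2015445-2015504). The log2 ratios of the 33 had medians of 0.36 (OR1) and -0.18 (OR2), against 0.53 and -0.14 over all 200 snoRNA genes measured on all arrays.

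Within hosts the snoRNA probes were not uniform. In SNHG1 the 8 snoRNA probes had a median ratio of 1.63 in OR1 and 1.07 in OR2, beside 1.40 and 1.19 for the host. In GAS5 the 6 had medians of 0.844 and 0.710, beside 0.896 and 0.816. Single snoRNAs departed from their hosts: SNORA44 in SNHG12 had ratios of 4.81 and 0.819, and SNORA9 in SNHG15 had 2.69 and 1.06. In OR1, these 2 and SNORD27 of SNHG1, at 2.26, were the 3 of 33 at or above 2, and SNORD87, at 0.490, was the 1 at or below 0.5. In OR2, SNORD74 and SNORD77 of GAS5, at 0.406 and 0.472, and SNORD87 were the 3 of 33 at or below 0.5, and none was at or above 2. Of genes well above background on at least 1 array, 8.95% were at or above 2 and 9.34% at or below 0.5 in OR1. In OR2 these shares were 7.47% and 8.41%. They include bounds, whereas the 33 were well above background on all 3 arrays. Of all genes measured on all 3 arrays, 84.3% (OR1) and 86.6% (OR2) lay between 0.5 and 2. The counts are therefore not read as particular to snoRNAs. Proteins of the snoRNA particles showed little difference, since of 16 measured only NOP56, a core protein, passed a ratio, at 2.13 in OR1 and 1.33 in OR2.

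**Figure D5:**
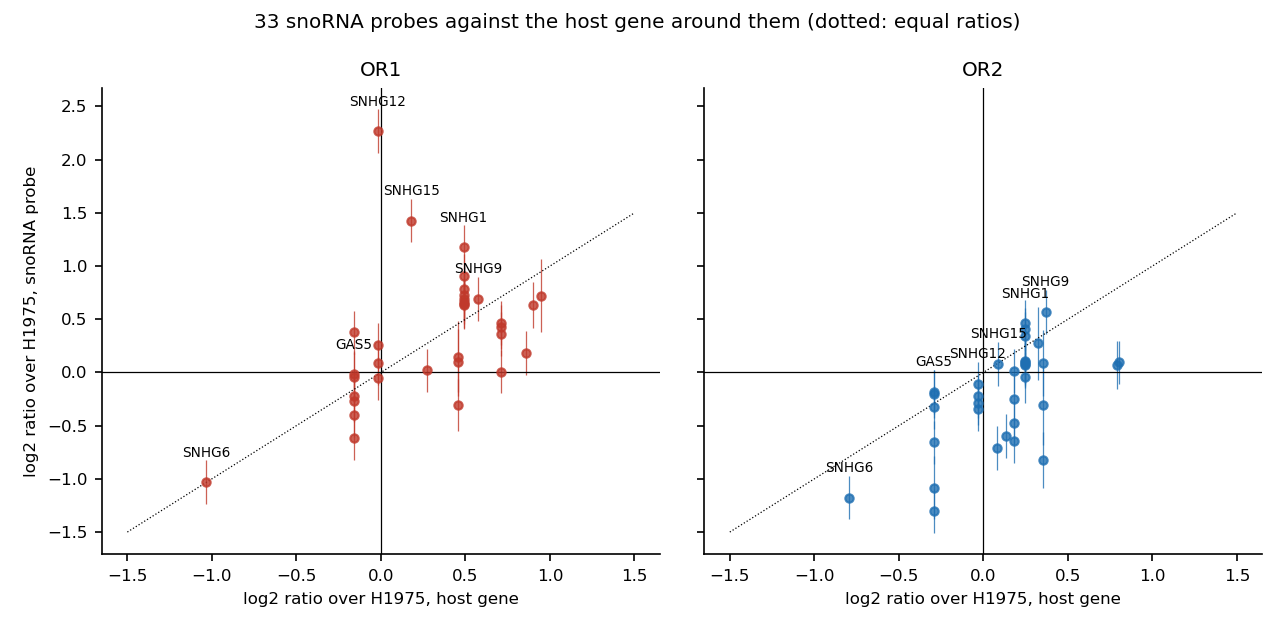
Log2 ratio over H1975 of 33 snoRNA probes (y axis, bars are the technical SD) against the log2 ratio of the host gene around each (x axis), for OR1 and OR2. Dotted lines mark equal ratios. In OR1 28 of 33 and in OR2 25 of 33 points lie on the same side of 0 as the host, and the share for unlinked genes was not computed. With scaling on spike-in probes every OR1 value would be lower by 0.60 on both axes.

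Several snoRNA hosts are known to begin, like ribosomal protein genes, with a run of pyrimidines, and the RefSeq start sites (GRCh38.p14) were searched for it. A run of at least 8 C or T was sought on the transcribed strand only, from 10 bases before to 20 bases after the start. It was found in 4 of 17 snoRNA hosts with an entry (23.5%), in 5 of 34 other members (14.7%) and in 12.6% of 27305 promoters. The 4 hosts are shown with the run in capitals, and their OR1 ratios ranged from 0.895 to 1.93, so no common ratio went with it.
SNHG4: ctcccggctgCCCTTTCCCCTCCggcctct
SNHG12: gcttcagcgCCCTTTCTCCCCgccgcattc
SNHG16: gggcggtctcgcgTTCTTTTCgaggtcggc
SNHG18: gccgcgccgCCTCCTCCTCCTCCTCCTCCC
A match is a description of these letters, and no match says only that these letters are not in this window. Factors of nonsense-mediated decay, which degrades many spliced hosts, had no member of 14 past a ratio over H1975 in either line. Their median log2 ratios were -0.12 and -0.17, and EIF4A3 was the lowest in each line, at 0.546 and 0.573. SMG9 was the highest in OR1, just short of 2 at 1.97, and was at 0.836 in OR2. Its ratio of OR2 over OR1, 0.424, was past 0.5.

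Probe by probe, 100 member probes stood well above background on 1 array or more. Of them, 12 were at or above 2 and 8 at or below 0.5 in OR1, against 8.97% and 9.26% of the 29356 probes measured. In OR2 the counts were 9 and 6, against 7.6% and 8.19%. Those past a ratio in both lines were 4 higher probes, of H19 and MIR503HG, and 5 lower probes, of MIR31HG and MIR205HG, against 5.02% and 6.15%. Of 28 members with several probes that gave a ratio in OR1, 23 had their lowest and highest ratios under 2-fold apart. Bounds were counted here as if they were values. The probes of HOTAIR, MEG3, MIR31HG and MIR181A1HG, which include bounds, can therefore lie farther apart than counted.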

How the data were processed

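Total RNA of H1975, OR1 and OR2 cells was amplified, labelled with Cy3 and hybridised by the authors to Agilent human expression arrays, 1 per line, all on the same slide. Agilent Feature Extraction (9.5.1.1 per the submitters' processing notes, 10.7.1.1 per the file headers) gave the deposited spot intensities, which were used as gProcessedSignal, already background-subtracted. The authors also deposited normalized log2 intensities, used as an alternative. Their medians are all 9.51, and their median distance from quantile-normalized values is 0.00059 (log2). The files give probe positions in hg19.

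Control spots and 45 to 61 outlier-flagged spots per array were left out, repeated spots were averaged as log2 values, and each array's 75th percentile was subtracted. None of the spots used was saturated. The probe with the highest mean represented a gene. A ratio with 1 side not well above background is a bound, with the dim side set to the higher of its own value and the array's lowest signal well above background. With 1 array per line no test was run, and genes at a ratio of at least 2 or at most 0.5 were called. Named in the text were all called members, the 5 brightest and the 5 nearest to a ratio among the others, the 7 genes the rule lists singly, and list genes past a ratio in both lines or near it. Members and lists were chosen with earlier results of these data known. Members were matched to RefSeq by accession (55) or symbol (6). Alternatives covered scaling, background correction, filters, probe choice and the ratio. Python 3.11.15, numpy 2.4.6, pandas 2.3.3, matplotlib 3.10.9, R 4.3.3 and limma 3.58.1 were used, and the calculation was tested on simulated data.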

Additional observations from a re-analysis of the deposited data

Results flagged for a closer look

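Members that lay on opposite sides of H1975 in the resistant lines, each by more than the technical SD, were singled out. MIR4697HG was at 0.849 of the H1975 value in OR1 and at 1.75 in OR2. Its OR1 side passed narrowly, with a log2 ratio of -0.24 against a technical SD of 0.21, and lay closer to H1975 with normexp, at 0.920. The HOTAIR probe from 54356620 (hg19, chromosome 12) was at 1.79 in OR1 and at most 0.409 in OR2, where it was not well above background. With 1 array per line these differences between OR1 and OR2 were not tested.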

How the results depend on the processing

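Of 1751 values under alternatives, 1514 stayed within the technical SD, or within 1.5 times for a count, 237 moved and 0 turned direction after being called. Among 1471 ratios of single members 190 moved, 89 of them with scaling on spike-in probes, which put the OR1 median of all genes lower, a shift of -0.60. The shift was -0.19 without scaling and -0.11 with median scaling.

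The counts of called members moved as follows. For OR1 higher (5), median scaling, no scaling and scaling on spike-in probes each gave 3, every probe 12, 4 as the ratio 3 and 1.5 as the ratio 15. For OR1 lower (2), quantile normalization, the 75th percentile over detected probes, the authors' values and a ratio of 4 each gave 1, no filter 4 and every probe 8. For OR2 higher (4), every probe gave 9, 4 as the ratio 2 and 1.5 as the ratio 11. For OR2 lower (1), no filter gave 4, the median over probes 2, every probe 6, 4 as the ratio 0 and 1.5 as the ratio 3. For both lines higher (2), every probe gave 4 and 1.5 as the ratio 8. For both lines lower (1), no filter and the median over probes gave 2, every probe 5, 4 as the ratio 0 and 1.5 as the ratio 2. Genes of the related lists past a ratio in both lines were 1 higher (2) with scaling on spike-in probes, normexp or a ratio of 4, and 0 lower (2) with normexp, detection on all arrays, the median over probes or a ratio of 4, and 5 with a ratio of 1.5.

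With scaling on spike-in probes the OR1 median log2 ratio was -0.24 for the members (0.35 as reported), -0.52 for snoRNA particle proteins, -0.71 for microRNA processing, -0.71 for nonsense-mediated decay, -0.73 for paraspeckle proteins, -0.52 for polycomb and HOXC genes and -0.36 for the partners of H19, MEG3 and PVT1. In OR1, decay factors had a median of 0.088 with the median over probes and 0.13 with every probe, and the partners had 0.76 with the median over probes. In OR2, snoRNA particle proteins had 0.10 with quantile normalization and with the authors' values. The cause of these moves was not tested, apart from counts that fall or grow with the ratio or the features counted.

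H19 ranged from 5.05 to 11.2 in OR1 and from 3.20 to 6.90 in OR2, lowest with normexp, and MIR503HG from 2.56 to 5.35 and from 2.01 to 5.16, lowest with the median over probes. MIR7-3HG in OR1 was at least 1.23-fold higher with the median over probes and 24.8-fold with no filter, the latter against an H1975 value not well above background. The median over probes is taken on each array, so for MIR205HG, which it adds to the lower members, it set different probes against each other and is not read as a ratio. No paired analysis was possible because each line has 1 array. The slide as a block was not run, since 1 slide held all 3 arrays. Members dimmer than background carry bounds only, and differences smaller than the technical SD cannot be read from single arrays.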
